A study of Mus musculus with 4 samples.

Results

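The Roundabout receptors Robo1 and Robo2, their secreted Slit ligands and the GTPase-activating proteins that act beneath the receptors were followed in sorted mouse β cells. The group was chosen by gene symbol: Robo1, Robo2, Slit1, Slit2, Slit3, Srgap1, Srgap2, Srgap3 and Arhgap39 were each found once, giving 9 genes among the 51912 genes of the table. The libraries came from pancreatic β cells of neonates at day 13, sorted as mCherry-positive cells after islet isolation, with 2 libraries from each genotype. Every library carried 1 copy each of the Rosa26-lsl-H2B-mCherry reporter and of Ucn3-Cre, a Cre recombinase expressed from a gene of maturing β cells. The control libraries were Robo1+/+ and Robo2+/+. The Robo mutant libraries were Robo1delta/delta, given as a deletion and not as a conditional allele, together with Robo2flx/flx, a conditional allele that is deleted only where Cre has acted. The series title asks whether β cells need Roundabout receptors for the sorting of endocrine cells within the islet. Whether each library is a separate animal or a pool is not in the labels. The p-values therefore rest on library-to-library spread that may be technical.

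Roundabout proteins are single-pass receptors of the immunoglobulin superfamily, best known for repelling growing axons that meet Slit. Slits are large secreted leucine-rich repeat proteins that bind the outer immunoglobulin domains of Robo with the help of heparan sulfate. Inside the cell, Robo has no enzyme activity of its own and recruits others: srGAP proteins bind the receptor's tail and switch off small GTPases, which reshapes the actin cytoskeleton. In the pancreas the same receptors are known to act in islet architecture.

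The 4 libraries held from 38886129 to 49593712 estimated counts. Counts were found for 19919 and 20918 genes in the control libraries and for 17751 and 17937 in the Robo mutant libraries. All 9 β-cell markers examined were present in every library, and the insulin genes Ins1 and Ins2 took 12.75% to 20.02% of the counts. Markers of acinar cells summed to 43878 CPM (counts scaled to a common library total, TMM-adjusted) in Robo mutant 2, against 510.1 to 4831 CPM in the other libraries, and markers of stromal cells to 13.0 CPM there, against 703.1 to 2418 CPM. Transcripts of the other islet hormones were present in all libraries, Gcg (glucagon) at 11451 to 23497 CPM, Sst (somatostatin) at 712 to 2145 CPM and Ppy (pancreatic polypeptide) at 788 to 2593 CPM. In bulk RNA, fewer cells of a type and less RNA per cell cannot be told apart.

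Robo1 and Robo2 lie beside each other on chromosome 16 (GRCm38), Robo1 at 72308306 to 73046095 on the plus strand and Robo2 at 73891839 to 74411825 on the minus strand, 0.846 megabases apart. Slit1 lies on chromosome 19 (41600257 to 41743665), Slit2 on chromosome 5 (47983138 to 48307733) and Slit3 on chromosome 11 (35121224 to 35708507). Srgap1 lies on chromosome 10 (121780991 to 122047315), Srgap2 on chromosome 1 (131285251 to 131527352), Srgap3 on chromosome 6 (112717971 to 112947266) and Arhgap39 on chromosome 15 (76723985 to 76818170). All are protein-coding. No other annotated gene shared exon sequence with a Robo or Slit gene. The exons of Srgap1 and of Srgap3 each overlapped 1 other annotated gene, Gm48804 and Gm44081, which had at most 6 counts in any library.

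Slit2 and Slit3 are linked to their receptors by a second route, because each carries a copy of the microRNA miR-218 in an intron, and miR-218 is known to repress Robo1 and Robo2. The mature sequence (RefSeq, GRCm38.p6) is shown with its seed, bases 2 to 8, in capitals. It is the same from both hosts, chr5:48223966-48223986 within Slit2 and chr11:35616840-35616860 within Slit3, both on the plus strand. Below it are the 3′ untranslated stretches of Robo1 and Robo2 (GENCODE, GRCm38) that hold its seed match AAGCACA, in capitals. They lie at chr16:73045334-73045355 on the plus strand and, on the minus strand, at chr16:73895358-73895379 and chr16:73893032-73893053.
mmu-miR-218-5p: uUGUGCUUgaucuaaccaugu
Robo1 site: ttttttggttttaaAAGCACAa
Robo2 first site: ttttatttggtgatAAGCACAa
Robo2 second site: gtcacggcagacccAAGCACAg
AAGCACA, searched on the transcript strand only, stood once in the 3′ untranslated region of Robo1, 2 times in that of Robo2, and once each in Slit2, Srgap2, Srgap3 and Arhgap39. It was found in 12.4% of 20674 protein-coding genes, whose untranslated regions had a median of 797 bases, against 1733 bases in Robo1 and 3520 in Robo2. A longer region has more chances of a match. The libraries measured no mature microRNA: the table's rows for both miR-218 hairpins were at 0 counts in every library.

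The stretches upstream of the annotated starts differed between the ligands Slit2 and Slit3 and the receptors. Shown are the 250 bases before a RefSeq start (GRCm38.p6) of Slit2 (chr5:47982905-47983154, plus strand), of Robo1 (chr16:72662899-72663148, plus strand) and of Robo2 (chr16:74411826-74412075, minus strand). They were chosen because the results turn on these genes and their stretches lie mostly outside annotated exons. Capitals mark the GC box, GGGCGG on either strand.
Slit2 upstream: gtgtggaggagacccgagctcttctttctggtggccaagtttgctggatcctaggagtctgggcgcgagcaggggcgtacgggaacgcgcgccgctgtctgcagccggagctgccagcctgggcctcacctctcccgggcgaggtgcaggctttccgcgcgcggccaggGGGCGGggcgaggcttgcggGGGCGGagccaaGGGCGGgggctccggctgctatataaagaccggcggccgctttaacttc
Robo1 upstream: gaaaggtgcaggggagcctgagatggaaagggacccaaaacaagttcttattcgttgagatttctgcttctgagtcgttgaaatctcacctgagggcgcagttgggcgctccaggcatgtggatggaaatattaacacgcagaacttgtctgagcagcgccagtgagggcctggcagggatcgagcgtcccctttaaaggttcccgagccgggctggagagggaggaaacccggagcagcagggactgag
Robo2 upstream: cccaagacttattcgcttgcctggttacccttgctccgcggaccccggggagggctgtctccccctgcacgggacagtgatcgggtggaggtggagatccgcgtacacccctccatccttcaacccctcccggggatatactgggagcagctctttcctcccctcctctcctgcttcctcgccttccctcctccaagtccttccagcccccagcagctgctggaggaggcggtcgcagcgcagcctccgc
Slit2 held 3 GC boxes and 1 TATA box (TATAAA), and Slit3, which is not printed because annotated exon covers most of its stretch, held 6 GC boxes, 2 of them overlapping. No GC box stood in the stretches of Robo1 or Robo2. GC boxes were not particular to the ligands: Srgap1 held 3, Srgap2 2 and Srgap3 1, the last with 1 TATAAA. Their stretches had 35, 14 and 7 CG dinucleotides. Among 32851 upstream stretches of this length, 32.7% held a GC box and 12.4% a TATAAA, both strands searched. Slit2 had 25 CG dinucleotides and Slit3 35, against 11 in Robo1, 14 in Robo2 and a median of 6.0 over all stretches. Robo2 has further RefSeq starts, whose stretches held 8 and 4 CG dinucleotides and no GC box. These stretches (chr16:75447294-75447543 and chr16:75092771-75093020) lie upstream of the gene span given above. The printed Robo2 start is therefore not the most upstream RefSeq one. The Robo1 stretch lies inside the gene span given above, so its start is not the most upstream annotated one. Entries were found for 7 of the 9 genes, and Slit1 and Arhgap39 had none. A match is a description of the letters and does not show that a factor binds there.

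Both receptor transcripts were lower in both Robo mutant libraries than in either control. Robo1 stood at 48.5 and 104 CPM in control 1 and control 2 and at 22.3 and 21.02 CPM in Robo mutant 1 and Robo mutant 2 (2323, 4242, 1114 and 956 counts). The groups did not overlap, and the mutant pair lay far closer together than the control pair. The mutant mean was 28.4% of the control mean, with a log2 change of -1.82 ± 0.40 (SE, n = 2 each). In edgeR's quasi-likelihood test its unadjusted p was 0.0080 and its adjusted p 0.680, whereas DESeq2 called it lower (adjusted p = 0.0019). The size rested partly on control 2, without which the log2 change was -1.16.

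Robo2, the receptor under the conditional allele, stood at 75.3 and 118 CPM in control 1 and control 2 and at 32.7 and 25.6 CPM in Robo mutant 1 and Robo mutant 2 (3603, 4823, 1634 and 1166 counts). Again control 2 was highest and the groups did not overlap. The mutant mean was 30.1% of the control mean (log2 change -1.73 ± 0.28, SE, n = 2 each). The unadjusted p was 0.0024 and the adjusted p 0.680 in edgeR, and DESeq2 called it lower (adjusted p = 1.99e-05). Counts are summed over the whole gene, so exons outside a deleted part are included, and the transcript that remained does not measure remaining receptor.

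The 2 receptors kept a similar proportion to each other whatever the genotype. Robo1 over Robo2, each as CPM per kilobase of exon, was 0.663 and 0.905 in control 1 and control 2 and 0.701 and 0.843 in Robo mutant 1 and Robo mutant 2. The mutant values lay between the control values. Each receptor was also the gene most like the other. Likeness was measured by the root mean square difference of log2 CPM, centred on each gene's own mean over the 4 libraries, among 8035 named genes with a mean at or above the median. Robo1 and Robo2 differed by 0.184, and no further gene lay within 0.2 of either. Next nearest to both was the heat shock gene Hspa1b, at 0.427 from Robo1 and 0.291 from Robo2, followed by Mon1b, a gene of endosome maturation, at 0.439 from Robo1, and by the zinc finger gene Zfp748, at 0.354 from Robo2. Hspa1b has a near-identical neighbour, Hspa1a, between which reads can be divided, so its value is uncertain. These distances rest on 4 libraries that also carry the genotypes and are given as a description.

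**Figure D1:**
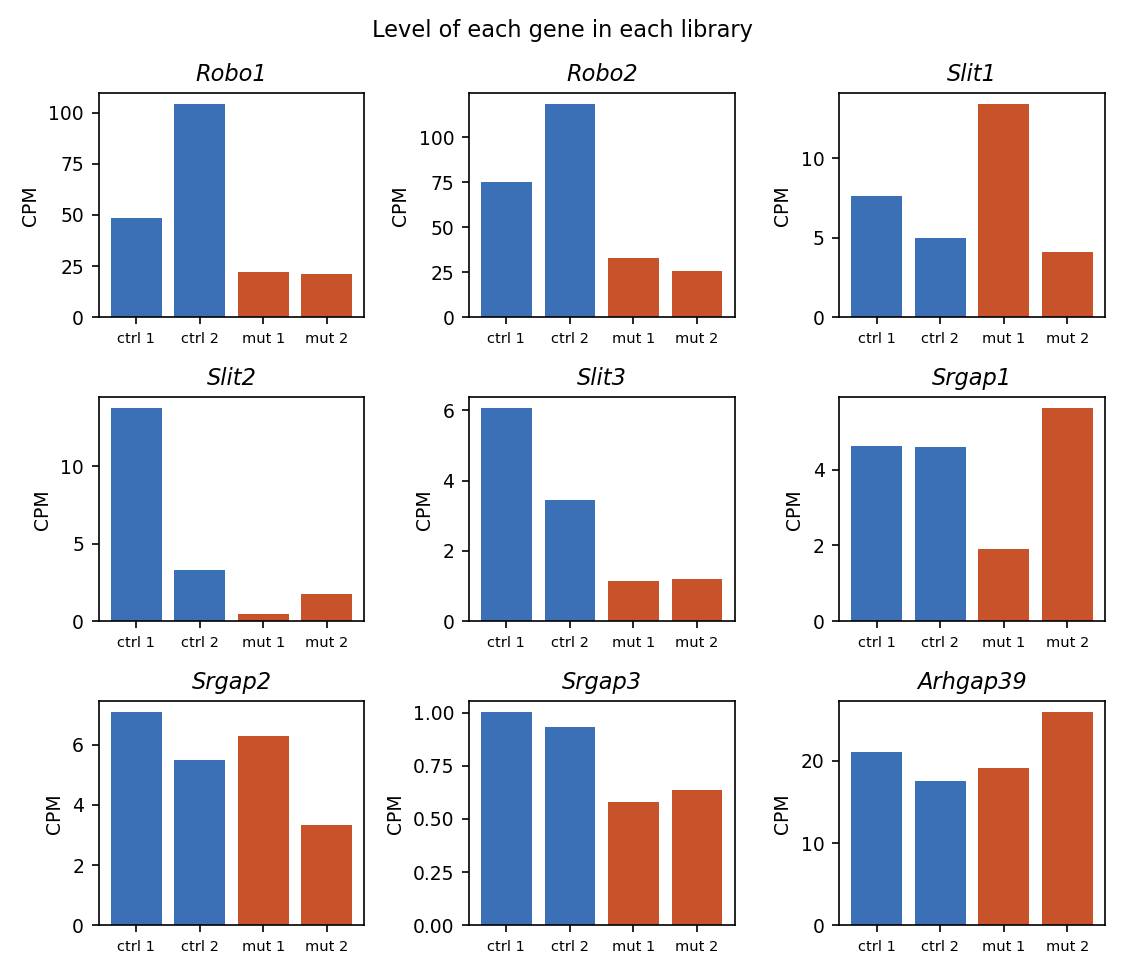
CPM of the 9 genes in the 4 libraries, 1 panel per gene with its own axis from 0; blue bars are control 1 and control 2 (ctrl) and orange bars Robo mutant 1 and Robo mutant 2 (mut). Robo1, Robo2, Slit2, Slit3 and Srgap3 have both orange bars below both blue bars, and the other 4 genes overlap.

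Among the ligands, Slit2 and Slit3 were lower in both Robo mutant libraries, whereas Slit1 was not. Slit2 stood at 13.7 and 3.31 CPM in control 1 and control 2 and at 0.480 and 1.74 CPM in Robo mutant 1 and Robo mutant 2. These values came from 658, 135, 24 and 79 counts, and the 24 counts had an exact 95% Poisson interval of 15.4 to 35.7 counts, for counting error only. The groups did not overlap, but the control libraries differed from each other more than control 2 differed from Robo mutant 2. The log2 change was -2.94 ± 1.06 (SE, n = 2 each) with an unadjusted p of 0.0437 and an adjusted p of 0.795 in edgeR, and DESeq2 did not call it (adjusted p = 0.202). It was -1.58 without control 1, -3.63 without control 2, -2.29 without Robo mutant 1 and -4.14 without Robo mutant 2, so each library moved its size by more than 1.5 times.

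Slit3 was steadier. It stood at 6.06 and 3.44 CPM in control 1 and control 2 and at 1.14 and 1.21 CPM in Robo mutant 1 and Robo mutant 2 (290, 140, 57 and 55 counts). The mutant values were almost equal and both lay below the controls. The mutant mean was 24.8% of the control mean, with a log2 change of -2.01 ± 0.65 (SE, n = 2 each). The unadjusted p was 0.0304 and the adjusted p 0.735 in edgeR, and the adjusted p was 0.310 in DESeq2, so Slit3 was not called by either.

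Slit1, the ligand best known from the nervous system, had no common direction. It stood at 7.67 and 4.98 CPM in control 1 and control 2, at 13.4 CPM in Robo mutant 1 and at 4.13 CPM in Robo mutant 2 (367, 203, 671 and 188 counts). The highest and the lowest value were both mutant libraries. The log2 change was 0.47 ± 0.68 (SE, n = 2 each, edgeR adjusted p = 1.00), and it was -0.61 without Robo mutant 1 and 1.09 without Robo mutant 2. The 5 δ-cell markers summed to 1205 and 1158 CPM in the controls and 2620 and 1420 CPM in Robo mutant 1 and Robo mutant 2, a sum made up mostly of Sst, and none was at 0. Their orders differed: Sst (2145 CPM) and Hhex (30.2 CPM) were highest in Robo mutant 1, Rbp4 (470.2 CPM) and Ghsr (6.88 CPM) in Robo mutant 2, and Sstr3 (177 CPM) in control 2. Their part in the Slit1 values was not tested.

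The proportions of the 3 Slit transcripts therefore differed between the libraries, though neither edgeR nor DESeq2 called any of the 3. Summed per kilobase of exon, Slit1 made up 45.7% and 54.7% of the 3 Slit transcripts in control 1 and control 2, and 91.6% and 72.3% in Robo mutant 1 and Robo mutant 2. The groups did not overlap in this share. The sum itself did overlap, at 2.83 and 1.54 CPM per kilobase in the controls and 2.47 and 0.966 in Robo mutant 1 and Robo mutant 2. With the longest transcript as the length, the Slit1 share was 34.7%, 47.0%, 89.9% and 64.2% in the same order of libraries. By this length Slit2 had the largest share in control 1, at 35.5%.

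Stromal and endothelial cells are known sources of Slit2 and Slit3, and their markers differed between the libraries too. The 9 stromal markers, among them the collagen gene Col1a1, summed to 2418 and 703.1 CPM in control 1 and control 2, 1097 CPM in Robo mutant 1 and 13.0 CPM in Robo mutant 2. Of the 9, 1 (Col1a2) had both mutant libraries below both controls, Col1a1 having 95.01 CPM in Robo mutant 1 against 68.3 CPM in control 2. In Robo mutant 2, Col1a1, Pdgfra, Pdgfrb and Rgs5 were at 0 counts. The 7 endothelial markers, among them Pecam1, summed to 0.961 and 11.3 CPM in the controls and 0.880 and 0.176 CPM in Robo mutant 1 and Robo mutant 2. Of these markers, 5 (Cdh5, Kdr, Flt1, Tek and Esm1) were at 0 in both mutant libraries. Control 1 held 6 counts of Cdh5 and 0 of Kdr, Flt1, Tek and Esm1, so this contrast rested on control 2. Over all tested genes, 304 were at 0 in both mutant libraries and 21 in both controls. The part of either cell type in the Slit values was not tested.

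**Figure D2:**
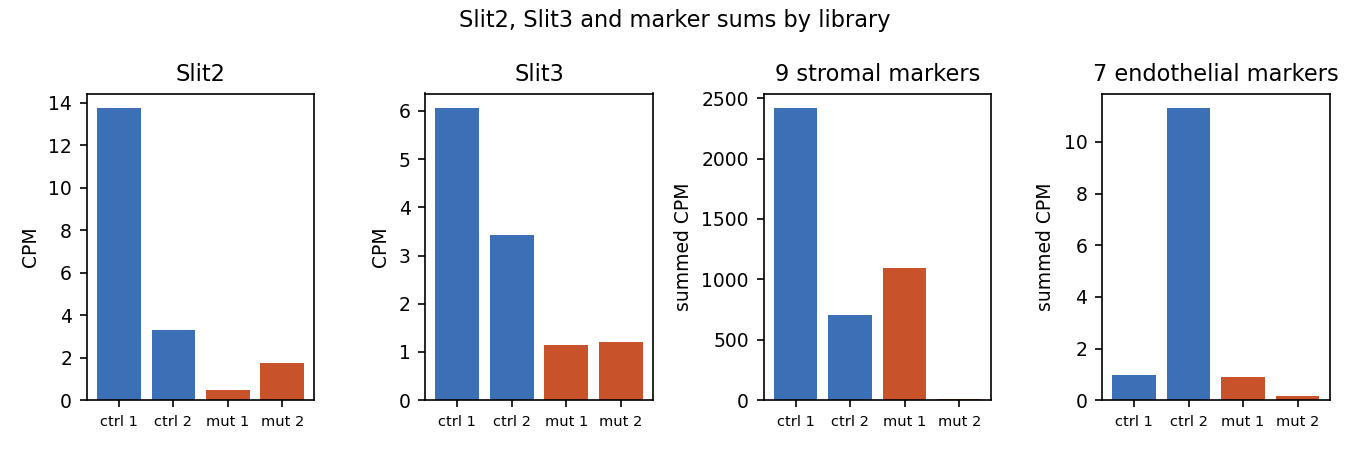
CPM of Slit2 and Slit3 and summed CPM of 9 stromal and 7 endothelial markers in each library (blue, controls; orange, Robo mutant libraries; each axis from 0). The stromal sum is highest in control 1 (2418 CPM) and lowest in Robo mutant 2 (13.0 CPM), and the endothelial sum is highest in control 2 (11.3 CPM).

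The effectors differed less. Srgap1, which encodes a GTPase-activating protein that binds the Robo tail and acts on Cdc42, stood at 4.64 and 4.61 CPM in control 1 and control 2 and at 1.90 and 5.63 CPM in Robo mutant 1 and Robo mutant 2. The mutant libraries lay on either side of an almost equal control pair. Its log2 change was -0.30 ± 0.69 (SE, n = 2 each), 0.28 without Robo mutant 1 and -1.28 without Robo mutant 2.

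Srgap2, whose product shapes membrane protrusions in neurons, stood at 7.08 and 5.50 CPM in control 1 and control 2 and at 6.30 and 3.32 CPM in Robo mutant 1 and Robo mutant 2. The groups overlapped, with Robo mutant 2 lowest (log2 change -0.39 ± 0.52, SE, n = 2 each). Srgap3, a member best known from the brain, stood at 1.00 and 0.932 CPM in the controls and at 0.580 and 0.638 CPM in Robo mutant 1 and Robo mutant 2. Both mutant values were lower, but they rested on 29 counts each, with exact 95% Poisson intervals of 19.4 to 41.7 counts, against 48 and 38 counts in the controls. The interval of control 1 was 35.4 to 63.6 counts and that of control 2 was 26.9 to 52.2 counts. The log2 change was -0.67 ± 0.90 (SE, n = 2 each), smaller than its own error.

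Arhgap39, the mammalian counterpart of a Robo-binding GTPase-activating protein of flies, was the most abundant of the 4 effectors. It stood at 21.1 and 17.6 CPM in control 1 and control 2 and at 19.2 and 26.0 CPM in Robo mutant 1 and Robo mutant 2. Robo mutant 1 lay between the controls and Robo mutant 2 above them (log2 change 0.22 ± 0.26, SE, n = 2 each), and without Robo mutant 2 the log2 change was -0.0087. The edgeR adjusted p of these 4 genes was 1.00, and DESeq2 called none of them.

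Read together, 0 of the 9 genes passed edgeR's quasi-likelihood test at an adjusted p under 0.05, as did 0% of the 16517 genes tested. All 9 had at least 10 counts in every library and were tested. At an unadjusted p under 0.05, 4 of the 9 were lower (Robo1, Robo2, Slit2 and Slit3) and 0 higher, against 4.21% of tested genes lower and 1.99% higher, and 6.21% in either direction. Of the 7 genes that the alleles do not target, 2 were among these. The shares of all tested genes cover every level, whereas in the mutant libraries Slit2 had 24 and 79 counts and Slit3 57 and 55. Fewer genes had counts in the Robo mutant libraries (17751 and 17937) than in the controls (19919 and 20918). Of all tested genes, 304 were at 0 in both mutant libraries and 21 in both controls. The part of this difference in the Slit2 and Slit3 values was not tested. DESeq2 called 2 of the 9, the targeted receptors, both lower, against 0.605% of genes lower and 0.914% in either direction. In 5 of the 9 genes each mutant library was below each control (20.4% of tested genes did so), and in 0 it was above (16.1%). Of the 7 genes that are not targeted, 3 were below in this way. The log2 change was below 0 in 7 of 9, the 2 targeted receptors included (51.3% of tested genes). Its median was -0.67 over the 9 genes and -0.39 over the 7 that are not targeted, against -0.013 over all tested genes. The members were chosen with earlier results of these data known, so these shares describe the list and are no test of it.

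**Figure D3:**
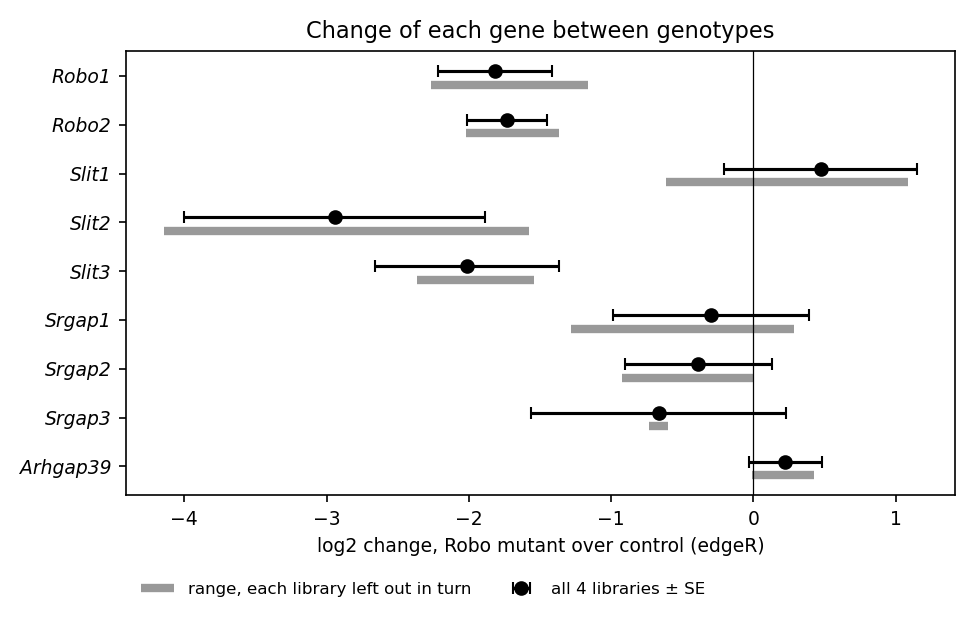
Log2 change of each gene, Robo mutant over control, from edgeR with all 4 libraries (points, with bars of 1 SE) and the range of that change when each library was left out in turn (grey). Robo1, Robo2, Slit2, Slit3 and Srgap3 stay below 0 over the whole range, whereas Slit1, Srgap1, Srgap2 and Arhgap39 reach both sides of 0. The first 5 have both mutant libraries below both controls, so leaving out 1 library could hardly turn them.

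Divided by exon length, the receptors were the most abundant transcripts of the group in control cells. In CPM per kilobase of exon, Robo2 stood at 5.70 ± 1.79, Robo1 at 4.62 ± 2.38 and Arhgap39 at 2.62 ± 0.335 (SD, n = 2 each), and the 2 receptors overlapped. Slit1 followed at 1.07 ± 0.321 and Slit3 at 0.782 ± 0.306, again overlapping. Srgap1 (0.507 ± 0.00191), Srgap2 (0.501 ± 0.0893) and Slit2 (0.335 ± 0.290) came next and overlapped one another, and Srgap3 was lowest at 0.0982 ± 0.00505. With the longest transcript as the length, Slit2 (0.856 ± 0.741) had a higher control mean than Srgap2 (0.784 ± 0.140) and Srgap1 (0.594 ± 0.00224). In the Robo mutant libraries Arhgap39 led at 3.06 ± 0.647, ahead of Robo2 at 1.72 ± 0.293, Slit1 at 1.48 ± 1.11 and Robo1 at 1.31 ± 0.0541 (SD, n = 2 each). In both mutant libraries Arhgap39 lay above both receptors and in both control libraries below them. In control 1, however, Arhgap39 and Robo1 were nearly equal, at 2.86 and 2.94 CPM per kilobase. With the longest transcript as the length they stood there at 4.68 and 6.42. The receptors together stood at 7.37 and 13.3 CPM per kilobase in control 1 and control 2, which was 2.60 and 8.63 times the sum of the 3 Slits. In Robo mutant 1 and Robo mutant 2 they stood at 3.27 and 2.78 CPM per kilobase, 1.32 and 2.88 times the Slit sum, a ratio that overlapped between genotypes.

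**Figure D4:**
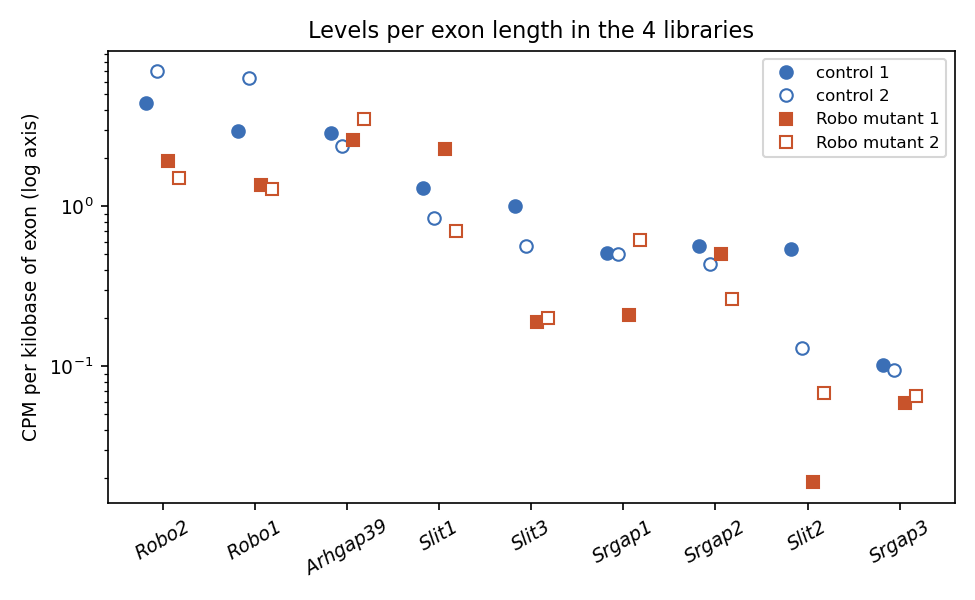
CPM per kilobase of exon of each gene in each library, on a log axis, ordered by the control mean (blue circles, control 1 filled and control 2 open; orange squares, Robo mutant 1 filled and Robo mutant 2 open). The receptors lead in the controls and Arhgap39 in the Robo mutant libraries; Slit2 spans the widest range.

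Of the other genes around the receptor, 0 passed in either list. Receptor partners and heparan sulfate coreceptors numbered 15, of which 12 were tested: 0 were called by edgeR or DESeq2, 5 had a log2 change below 0 and 7 above, and the median was 0.26. At an unadjusted p under 0.05 in edgeR 1 of the 12 was lower and 1 higher, where 4.21% and 1.99% of all tested genes were. Both were syndecans, proteins that carry heparan sulfate chains. Sdc3 stood at 73.0 and 70.8 CPM in control 1 and control 2 and at 47.2 and 41.2 CPM in Robo mutant 1 and Robo mutant 2. Sdc4 went the other way, at 29.98 and 20.3 CPM in the controls and 41.7 and 58.5 CPM in Robo mutant 1 and Robo mutant 2. Their log2 changes were -0.70 ± 0.14 and 0.99 ± 0.29 (SE, n = 2 each), with edgeR adjusted p of 0.680 for both, the smallest of any tested gene. In DESeq2 the adjusted p was 0.052 for Sdc3 and 0.171 for Sdc4. The ubiquitin ligase adaptor gene Ndfip1, known to lower Robo levels, and the glypican gene Gpc1 had log2 changes of -0.26 and -0.66 and both mutant libraries below both controls. Of the 12, 3 had both mutant libraries below both controls and 2 above, where 20.4% and 16.1% of all tested genes did.

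The other Robo family members were at or near 0. Robo3 and Dcc, a netrin receptor that can bind Robo, were at 0 counts throughout. A count of 0 allows up to 3 per library, as a 95% Poisson limit on the upper side only. Robo4, the Robo of blood vessels, had 9 counts in control 2, the library with the most endothelial transcript, and 0 in the other 3 libraries. It lies outside the rule for named genes and was added after its values were seen.

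Cytoplasmic effectors and adaptors numbered 23, of which 22 were tested. By edgeR and by DESeq2 0 were called, 12 had a log2 change below 0 and 10 above, and the median was -0.0063. At an unadjusted p under 0.05 in edgeR 1 of the 22 differed, where 6.21% of all tested genes did, so the list's share was no higher than the background. It was Cdh2, which encodes N-cadherin, an adhesion molecule that Robo signalling is known to uncouple from the cytoskeleton. It stood at 123 and 151 CPM in control 1 and control 2 and at 211 and 191 CPM in Robo mutant 1 and Robo mutant 2. Both mutant values lay above both controls (log2 change 0.55 ± 0.16, SE, n = 2 each, edgeR adjusted p = 0.680, DESeq2 adjusted p = 0.0771). The actin regulator gene Enah was at 6.79 and 8.22 CPM in the controls and 9.46 and 15.1 CPM in Robo mutant 1 and Robo mutant 2. The kinase gene Abl1 and the GTPase gene Rhoa, both downstream of Robo, had log2 changes of -0.29 and -0.23, without overlap between the genotypes. Of the 22, 4 had both mutant libraries below both controls and 3 above. Among all tested genes, 20.4% lay below and 16.1% above in this way.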

How the data were processed

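RNA was sequenced from 2 control and 2 Robo mutant libraries. Per the labels' protocols, full-length cDNA was made with SMART-Seq v4 and libraries with Nextera XT, which does not mark the strand. The submitters' processing notes name bcl2fastq 2.20.0.422, STAR 2.5.3a, RSEM 1.3.0, edgeR 3.16.5 and build GRCm38; which tool made which step, and on which annotation release, was not stated. The deposited table was read as an estimated count per gene and library. RSEM estimates can be fractional and these are whole numbers, and no rounding step is described per the labels. The table's name calls it normalized, but the totals differ between libraries and low values have no gaps. If the authors did rescale it, counting intervals are approximate.

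The 16517 genes that reached 10 counts in 2 or more libraries were tested two-sided with edgeR 4.0.16 (R 4.3.3; TMM, glmQLFit, glmQLFTest), Robo mutant against control, with Benjamini-Hochberg adjustment over all of them and a threshold of 0.05. The SE of a log2 change is its size over the square root of the F statistic. CPM uses TMM-scaled totals. DESeq2 1.42.0 and limma 3.58.1 were alternatives, with other scalings, filters and each library left out. The procedure was tested on simulated data with known changes and the same dispersion for every gene. That tests the code and does not show which changes could be found in these libraries. Positions and exon lengths came from GENCODE M21, in which 51633 of 51912 identifiers were found, and upstream and microRNA sequences from RefSeq. Named genes are the 9 members, the 4 of smallest p and those at 0 everywhere in each pathway list, the 3 genes most like each receptor, and the first marker of each cell type list with any at 0 everywhere. Robo4, Ins2 and the other stromal, endothelial and δ-cell markers in the text lie outside this rule and were named after their values were seen. Of the first markers, Cpa1 (acinar), Krt19 (duct), Ptprc (immune) and Sox10 (Schwann and neural) bear on no result, and the duct marker Cftr was at 0 counts in every library. The members and lists were chosen with earlier results of these data known.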

Additional observations from a re-analysis of the deposited data

How the results depend on the processing

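The number of calls changed with the test. DESeq2 called 151 genes, among them 2 of the 9 members, Robo1 (log2 change -1.80) and Robo2 (-1.71), where edgeR called 0. With each library left out in turn, edgeR called 0 to 1 genes over the table and 0 of the members each time; the 1 call came without Robo mutant 2. The log2 change then ranged from -2.26 to -1.16 for Robo1, from -2.02 to -1.37 for Robo2, from -4.14 to -1.58 for Slit2, from -2.36 to -1.54 for Slit3 and from -0.73 to -0.60 for Srgap3. These 5 genes kept their direction in all 11 alternatives, which reuse the same counts. In each of the 5 both mutant libraries were below both controls, so leaving out 1 library could hardly turn the direction. The other 4 each turned once: Slit1 (range -0.61 to 1.09) and Srgap1 (-1.28 to 0.28) without Robo mutant 1, and Srgap2 (-0.92 to 0.0037) and Arhgap39 (-0.0087 to 0.42) without Robo mutant 2. Leaving out a library leaves 1 in its group, which is then assumed to vary like the other. Over edgeR and limma alternatives the adjusted p of Robo1 ran from 0.154 to 1.00 and that of Robo2 from 0.133 to 1.00. With the longest transcript as the length, the receptors stood at 3.90 and 14.7 times the Slit sum in control 1 and control 2 (9.32 ± 7.67, SD, n = 2), against 2.60 and 8.63 with all exons (5.62 ± 4.26, SD, n = 2). No paired analysis was possible because the labels give no replicate numbers. Srgap3 rested on 29 to 48 counts per library and Slit2 on 24 in Robo mutant 1.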
